A study of Mus musculus with 24 samples.

Results

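The immediate early genes described here were chosen by name, as the 10 genes Fos, Fosb, Jun, Junb, Jund, Egr1, Egr2, Egr3, Atf3 and Ier3, out of 21154 genes that could be named on the array, and all 10 had a probe. Thymocytes of male and female C57BL/6J mice were profiled on 24 arrays, with 3 arrays in each of 8 groups. For each sex there was a non-irradiated control group, a group given 0.075 Gy of X-rays (low dose), a group given 1.75 Gy of γ-rays (high dose), and a group given 0.075 Gy of X-rays 6 h before 1.75 Gy of γ-rays (RAR, for radio-adaptive response). The mice were irradiated whole-body at 4–5 weeks of age, and thymocytes were released from the thymus by mechanical dispersion and passed through a strainer without a sort, so other cells of the thymus could be in each sample. The time from the last irradiation to the collection of cells is not given in the sources used here. Every array held thymocyte RNA labeled with Cy5 against a common pool of mouse reference RNA labeled with Cy3, and a level below is log2 (Cy5/Cy3), so levels are comparable between arrays for 1 gene and not between genes. The methods give 3 mice for an experimental group and 3 independent samples of thymocytes per condition.

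Immediate early genes are transcribed within minutes of a stimulus without the need for new protein synthesis. FOS and JUN family proteins pair through leucine zippers into the AP-1 transcription factor, ATF3 is a related leucine zipper protein of stress responses, and EGR1, EGR2 and EGR3 are zinc finger factors that in the thymus are induced by signals from the T cell receptor and take part in thymocyte selection. IER3 differs from the rest, as it is a small stress-induced protein linked to cell survival and not a DNA-binding factor. Ionizing radiation is a known inducer of several of these genes.

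Each gene was measured by 1 probe, printed 10 times for Fos and once for the others. The Cy5 signal of Fos, Fosb, Jun, Jund, Egr1, Egr2, Atf3 and Ier3 was well above background on all 24 arrays. That of Junb was well above background on 23 arrays, all except 1 female RAR array. That of Egr3 was well above background on 0 of 24 arrays, so its ratios give no usable level.

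The promoters of Fos, Jun, Atf3 and Ier3 are shown because these genes rose in every comparison with control. Egr2 is shown with them as a gene that did not move. Each run is the 120 bases before the annotated start, 5′ to 3′ on the strand of the gene, from the RefSeq promoter table of GRCm38.p6. Capitals mark a TATA box (TATAAA), the core TGACG of the cAMP response element on either strand, the NF-kappaB site or the CArG box bound by SRF. The Egr2 run is 1 of 5 promoter windows listed for that gene.
Fos (chr12:85473770-85473889, plus strand): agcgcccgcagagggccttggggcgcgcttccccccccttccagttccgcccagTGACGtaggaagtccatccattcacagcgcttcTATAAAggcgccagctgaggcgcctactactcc
Jun (chr4:95052223-95052342, minus strand): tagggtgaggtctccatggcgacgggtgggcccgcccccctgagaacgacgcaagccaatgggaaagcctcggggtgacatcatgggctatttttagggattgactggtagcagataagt
Atf3 (chr1:191183334-191183453, minus strand): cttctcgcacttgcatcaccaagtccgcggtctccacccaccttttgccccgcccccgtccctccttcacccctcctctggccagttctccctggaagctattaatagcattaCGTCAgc
Ier3 (chr17:35821593-35821712, plus strand): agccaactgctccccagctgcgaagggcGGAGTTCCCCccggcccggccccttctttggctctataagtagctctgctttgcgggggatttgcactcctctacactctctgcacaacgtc
Egr2 (chr10:67537749-67537868, plus strand): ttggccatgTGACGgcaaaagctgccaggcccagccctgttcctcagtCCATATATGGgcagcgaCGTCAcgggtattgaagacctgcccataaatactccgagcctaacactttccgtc

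The search covered the 250 bases before the start, and 8 of the 10 genes were in the promoter table. Egr1 and Egr3 were not in it, so nothing can be said of their promoters. Sites farther from the start were not searched in any gene. The core TGACG, which was added to the search after the sequences had been seen, was found in Atf3, Egr2, Fos, Fosb and Junb, that is 5 of 8 genes, and in 17.8% of all 32851 promoters. The NF-kappaB site was found in Fos, Fosb and Ier3, 3 of 8 genes, against 3.9% of all promoters. The CArG box was found in Egr2 alone of the 8 and in 1.47% of all promoters, and the EGR site GCGNGGGCG in Fosb alone and in 4.7% of all promoters. The TATA box, searched on the given strand, was found in Fos and in 7.59% of all promoters. The full cAMP response element TGACGTCA, which contains the core, was found in 0 of 8 genes and 1.55% of promoters, and the AP-1 site TGANTCA in 0 of 8 and 6.75%. A gene can have more than 1 promoter. By gene, the shares of 27025 genes were 19.8% for TGACG, 4.46% for the NF-kappaB site and 1.62% for the CArG box. They were 5.33% for the EGR site, 8.94% for the TATA box, 1.77% for the full element and 7.82% for the AP-1 site. The Jun run held none of the exact patterns searched, and near matches were not counted. These matches describe the letters in the window and were not tested for factor binding.

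The first question was how each irradiation changed these genes relative to the control of the same sex. Jun, Atf3, Ier3 and Fos rose in all 6 comparisons with control, in both sexes and after each of the low dose, the high dose and the adaptive regimen. Jun rose 4.55- to 13.6-fold, Atf3 3.47- to 12.1-fold, Ier3 3.67- to 12.3-fold and Fos 2.2- to 3.52-fold. Jun, Atf3 and Ier3 were highest in RAR, whereas Fos was not. Fosb rose in RAR only by the threshold used, Junb passed it in males only, and the 3 EGR genes passed it in 0 comparisons.

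A gene was counted as changed at a Benjamini-Hochberg adjusted p under 0.05 in a limma fit over 55681 probes, provided that it differed at least 1.5-fold. By this rule 4 of 10 genes rose after high dose in females, where 7.89% of all probes were called and 4.23% were called higher. After low dose in females 4 of 10 rose, against 8.77% of all probes called and 4.76% called higher, and in RAR females 5 of 10, against 20.5% called and 9.64% called higher. In males 5 of 10 rose after high dose (10.6% of all probes called, 5.2% higher), 5 of 10 after low dose (6.65% called, 3.21% higher) and 6 of 10 in RAR (24.6% called, 11.2% higher). None of the 10 genes was called lower in any of these 6 comparisons. The median change of the 10 genes in females was 0.48 on the log2 scale at high dose and 0.38 at low dose, beside medians over all probes of −0.0211 and −0.0453. The 4 genes that rose in all 6 comparisons stand beside 417 of 21154 named genes, or 1.97%, that did so. The 6 comparisons share the 3 control arrays of each sex, so they are not independent of each other.

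**Figure D1:**
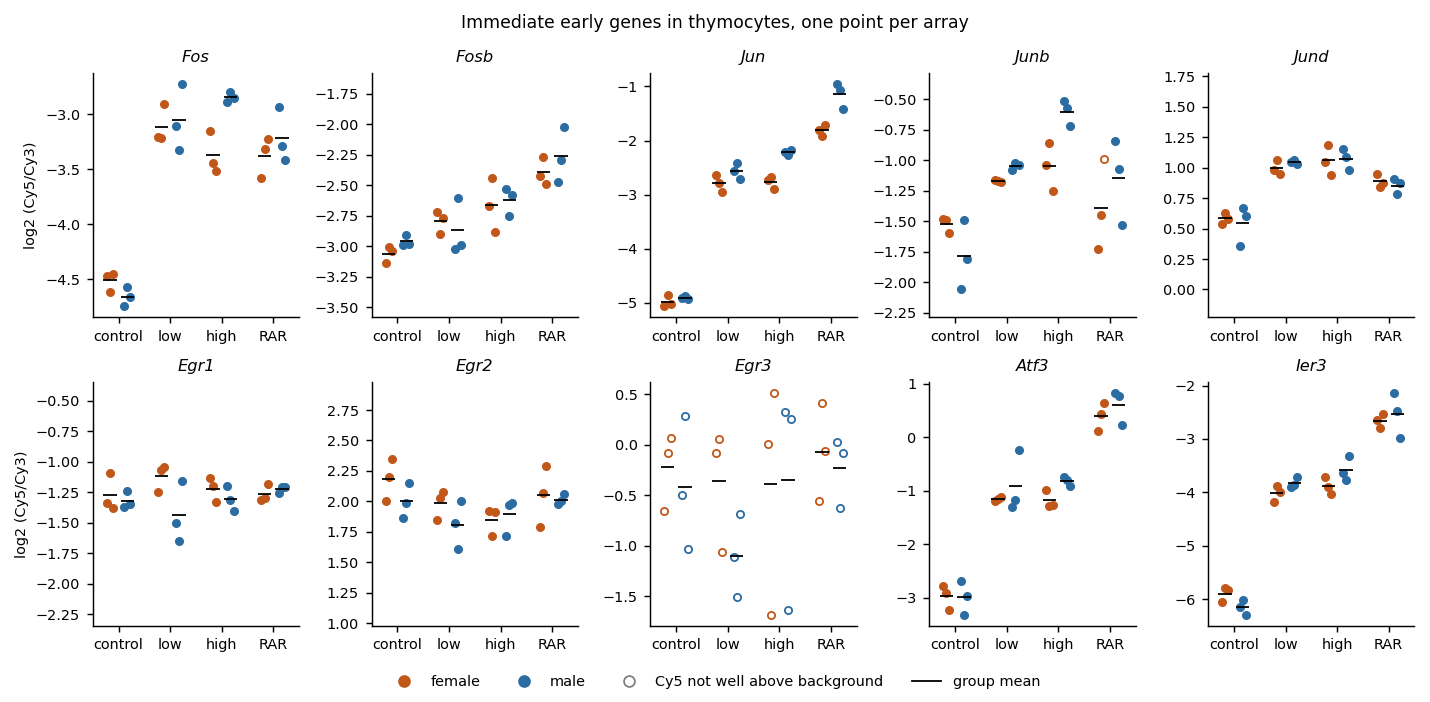
Level of each of the 10 genes as log2 (Cy5/Cy3), with 1 point per array, females in orange and males in blue, open points where Cy5 was not well above background, and a bar at the mean of the 3 arrays; vertical axes differ between genes. Jun, Atf3 and Ier3 form 3 tiers (control, the 2 single doses, RAR), Fos forms 2 tiers, and Egr1 and Egr2 lie in 1 band.

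JUN is the main partner of FOS proteins in AP-1 and a substrate of the JNK kinases. Its level in the 3 female control arrays was −5.06, −4.86 and −5.02, after low dose −2.64, −2.78 and −2.96, after high dose −2.74, −2.68 and −2.89, and in RAR −1.81, −1.91 and −1.71. In males it was −4.91, −4.88 and −4.93 in control, −2.57, −2.41 and −2.71 after low dose, −2.22, −2.26 and −2.18 after high dose, and −0.96, −1.06 and −1.41 in RAR. Every irradiated array was higher than every control array, and every RAR array was higher than every array of the single doses. In females Jun rose by 2.18 ± 0.119 (log2 change ± SE, n = 3 against 3) after low dose, by 2.21 after high dose and by 3.17 in RAR, with adjusted p (limma) of 2.25e-09, 2.26e-09 and 1.25e-11. In males the rises were 2.34, 2.69 and 3.76, with adjusted p of 9.34e-10, 9.32e-11 and 1.07e-12.

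ATF3 is induced by many kinds of stress and can repress or activate its targets according to its partner. The level of Atf3 in females was −2.77, −2.91 and −3.23 in control, −1.18, −1.15 and −1.12 after low dose, −0.98, −1.28 and −1.27 after high dose, and 0.12, 0.43 and 0.65 in RAR. In males it was −2.68, −3.31 and −2.96 in control, −1.30, −1.17 and −0.24 after low dose, −0.73, −0.79 and −0.91 after high dose, and 0.83, 0.77 and 0.23 in RAR. The tiers were those of Jun and did not overlap, although the highest male low dose array lay nearer to the lowest male RAR array than to the other low dose arrays. Against control Atf3 rose by 1.82 ± 0.239, 1.80 and 3.37 in females after low dose, high dose and RAR, and by 2.08, 2.18 and 3.60 in males, with adjusted p between 4.36e-09 and 5.99e-05 (limma).

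IER3 acts on survival signals of stressed cells. In females the level of its gene was −6.06, −5.80 and −5.83 in control, −4.18, −3.89 and −3.99 after low dose, −3.72, −3.90 and −4.03 after high dose, and −2.65, −2.80 and −2.54 in RAR. In males it was −6.15, −6.02 and −6.29 in control, −3.90, −3.87 and −3.71 after low dose, −3.63, −3.77 and −3.32 after high dose, and −2.14, −2.48 and −2.98 in RAR. Again the controls were lowest and the RAR arrays highest, without overlap. Ier3 rose by 1.87 ± 0.172, 2.01 and 3.23 in females after low dose, high dose and RAR and by 2.32, 2.58 and 3.62 in males, with adjusted p between 9.21e-11 and 1.31e-06 (limma).

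FOS cannot pair with itself and binds DNA as a partner of JUN proteins. The level of Fos in females was −4.47, −4.61 and −4.45 in control, −3.21, −3.22 and −2.91 after low dose, −3.15, −3.44 and −3.52 after high dose, and −3.58, −3.32 and −3.23 in RAR. In males it was −4.74, −4.57 and −4.66 in control, −3.11, −3.33 and −2.73 after low dose, −2.89, −2.80 and −2.85 after high dose, and −2.94, −3.29 and −3.42 in RAR. The highest control array, at −4.45, was lower than the lowest irradiated array, at −3.58, while the 3 irradiated groups of a sex lay close together. Fos rose by 1.40 ± 0.155, 1.14 and 1.14 in females after low dose, high dose and RAR and by 1.60, 1.81 and 1.44 in males, with adjusted p between 3.74e-07 and 7.42e-05 (limma).

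**Figure D2:**
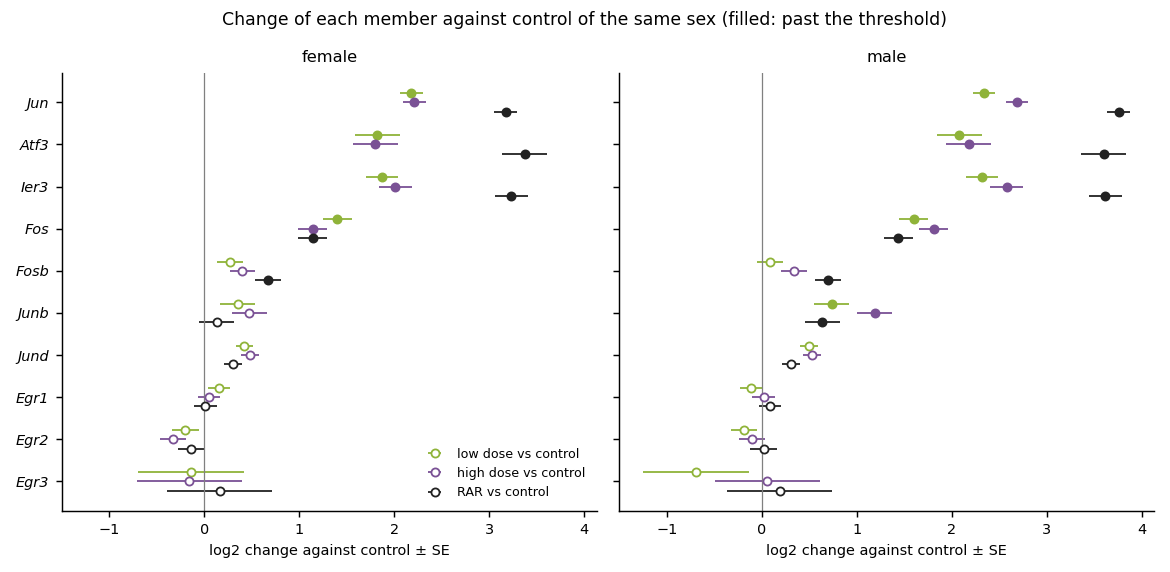
Log2 change of each gene against the control of the same sex (horizontal axis) with its standard error from the limma fit, for low dose, high dose and RAR in females (left) and males (right); filled points had an adjusted p under 0.05 and at least a 1.5-fold change. Jun, Atf3 and Ier3 changed by 1.80 to 2.69 after a single dose and by 3.17 to 3.76 in RAR, and Fos by 1.14 to 1.81 in all 3 treatments.

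Fosb, a FOS relative whose mRNA also gives a shortened splice form, moved less. In females its level was −3.14, −3.01 and −3.04 in control and −2.42, −2.27 and −2.49 in RAR, and in males −2.99, −2.91 and −2.98 in control and −2.47, −2.29 and −2.02 in RAR. The RAR arrays were higher than the controls of their sex without overlap, and Fosb rose in RAR by 0.67 ± 0.135 in females (adjusted p = 0.000802, limma) and by 0.70 in males (adjusted p = 0.000486). After a single dose the changes were 0.09 to 0.40 and did not pass the threshold. In a fit with the slide as a block the RAR change fell to 0.44 in females, with an adjusted p of 0.139, and to 0.50 in males, under 1.5-fold. It was 0.35 in females under quantile normalization (adjusted p = 0.172) and 0.58 in males without male RAR 3, under 1.5-fold.

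Junb, which acts with weaker AP-1 activity than JUN and can oppose it, passed the threshold in males and not in females. Its level in males was −2.06, −1.49 and −1.81 in control, −1.08, −1.02 and −1.04 after low dose, −0.51, −0.57 and −0.72 after high dose, and −0.84, −1.07 and −1.53 in RAR. In females it was −1.48, −1.49 and −1.60 in control, −1.16, −1.17 and −1.18 after low dose, −1.04, −0.86 and −1.25 after high dose, and −1.73, −1.45 and −0.99 in RAR. The last of these arrays is the 1 on which Cy5 was not well above background. In males Junb rose by 1.19 ± 0.184 after high dose (adjusted p = 0.000194, limma), by 0.74 after low dose (adjusted p = 0.0133) and by 0.64 in RAR (adjusted p = 0.011), where 1 RAR array lay below 1 control array. In females the changes were 0.47, 0.35 and 0.13, with adjusted p of 0.108 to 0.682, although under quantile normalization the change after high dose was 0.59 and was called (adjusted p = 0.0346). The difference between the sexes was not shown, as the interaction of sex and treatment had an adjusted p of 0.784 for Junb. With normexp background correction the male change after low dose was 0.50, under 1.5-fold. Without male control 1 the male changes after low dose and in RAR were 0.60 (adjusted p = 0.0843) and 0.50 (adjusted p = 0.0708), and without male RAR 1 the change in RAR was 0.49 (adjusted p = 0.0726).

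Jund, the JUN family member that resting cells express most steadily, had a small shift. The 6 control arrays lay between 0.36 and 0.67 and the 18 irradiated arrays between 0.78 and 1.19, without overlap. The changes were 0.30 to 0.53, with adjusted p of 0.000508 to 0.0166 (limma), but amounted to 1.24- to 1.44-fold and did not reach the fold threshold. Without male control 2 the change after high dose in males was 0.59 and was called. From the Cy5 channel alone they were smaller, and the change in RAR females turned to −0.13.

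The EGR genes did not follow the AP-1 genes. Egr1 lay between −1.65 and −1.04 on the 24 arrays, and its 6 changes against control were −0.11 to 0.15, with 95% intervals that together ran from −0.36 to 0.40. Egr2 lay between 1.61 and 2.35, well above the reference RNA on each array, and its changes were −0.33 to 0.02, with intervals from −0.62 to 0.31. A rise in these 2 genes of the size seen for Fos is outside these intervals. The lowest adjusted p (limma) was 0.519 for Egr1 and 0.134 for Egr2, and the sign of the Egr1 changes turned negative in all 6 comparisons in the Cy5 channel alone. For Egr3, whose Cy5 signal was not well above background on any array, no change is given.

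The second question was whether the adaptive regimen left these genes at another level than either dose by itself. Jun, Atf3 and Ier3 were higher in RAR than after high dose and higher than after low dose, in both sexes. Against high dose 3 of 10 genes rose in females, where 7.3% of all probes were called and 4% were called higher, and 3 of 10 in males, where 5.89% were called and 3.1% higher. Against low dose 3 of 10 rose in females (4.14% of all probes called, 2.28% higher) and 4 of 10 in males (9.78% called, 4.98% higher), with Fosb as the additional gene in males. In this fit none of the 10 genes was called lower in these comparisons. Of the named genes 170 of 21154, or 0.804%, rose in all 6 comparisons with control and were higher in RAR than after both single doses in both sexes, and Jun, Atf3 and Ier3 are among them.

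Jun was higher in RAR than after high dose by 0.96 in females (1.94-fold, adjusted p = 7.29e-05, limma) and by 1.07 in males (2.11-fold, adjusted p = 1.75e-05), and higher than after low dose by 0.98 and 1.42. Atf3 exceeded its level at high dose by 1.58 in females (2.98-fold, adjusted p = 0.000535, limma) and 1.42 in males (2.67-fold, adjusted p = 0.000966), and its level at low dose by 1.55 and 1.51. Ier3 exceeded its level at high dose by 1.22 in females (2.33-fold, adjusted p = 0.000272, limma) and 1.04 in males (2.06-fold, adjusted p = 0.000828), and its level at low dose by 1.36 and 1.29. Without the female RAR arrays 2 and 3 together, which had the highest and the lowest share of spots above background, the Atf3 differences in females were 1.29 (adjusted p = 0.0649) and 1.27 (adjusted p = 0.0903). Jun and Ier3 passed the threshold without them.

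Fos did not show this step. In RAR it differed from high dose by −0.00 in females, with a 95% interval from −0.33 to 0.32, and by −0.37 in males, with an interval from −0.70 to −0.04 and an adjusted p of 0.151 (limma). It differed from low dose by −0.26 in females and −0.16 in males, with adjusted p of 0.366 and 0.596, although under quantile normalization the female difference was −0.60 and Fos was called lower (adjusted p = 0.0413). Fosb was higher in RAR than after low dose in males by 0.61 (adjusted p = 0.00401, limma) and in females by 0.40 (adjusted p = 0.0839), and the male value fell to 0.41 (adjusted p = 0.168) with the slide as a block. It also missed the threshold without male RAR 3 (0.49), male low dose 1 (0.54) or male low dose 3 (0.55). In males the difference of Junb between RAR and high dose was −0.55, with an interval from −0.93 to −0.16 and an adjusted p of 0.0686, and did not pass the threshold. Without male RAR 1 it was −0.70 and was called (adjusted p = 0.0433).

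**Figure D3:**
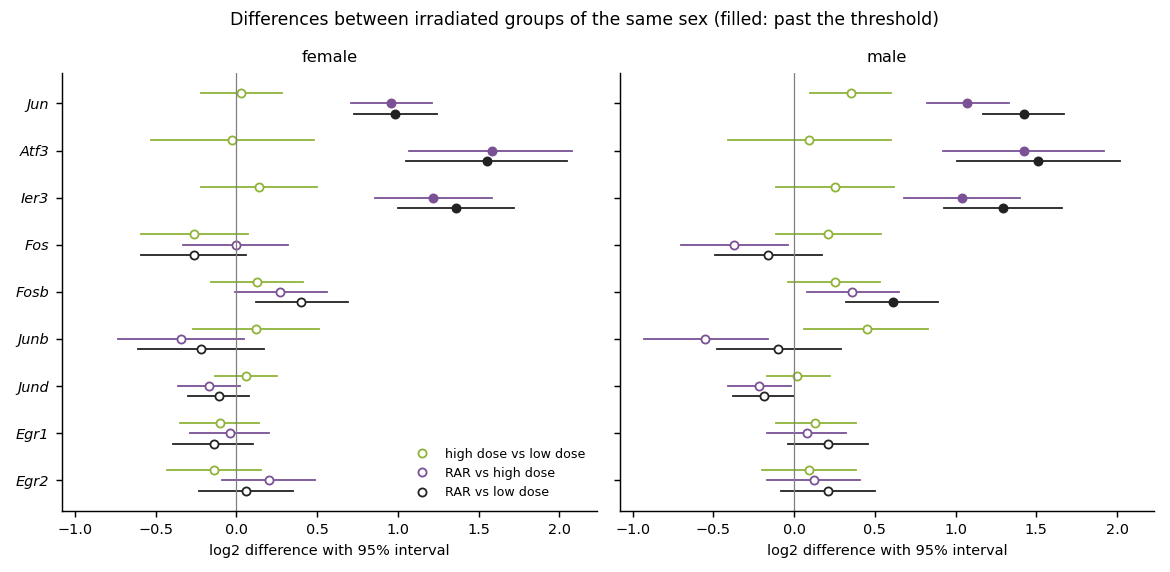
Log2 difference between irradiated groups of the same sex (horizontal axis) with its 95% interval, for the 9 genes with a usable level; filled points had an adjusted p under 0.05 and at least a 1.5-fold difference. RAR exceeded both single doses for Jun, Atf3 and Ier3 by 0.96 to 1.58, and no gene differed past the threshold between high dose and low dose.

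The single doses were set against each other after the values had been seen. Of the 10 genes 0 differed between high dose and low dose in either sex, where 0% of all probes in females and 0.0018% in males were called. In females the difference was 0.03 for Jun (95% interval −0.22 to 0.28), −0.03 for Atf3 (−0.53 to 0.48), 0.14 for Ier3 (−0.22 to 0.50) and −0.26 for Fos (−0.59 to 0.07). In males Jun was 0.35 higher after high dose (interval 0.10 to 0.60, adjusted p = 0.55, limma) and Junb 0.45 higher (0.06 to 0.83, adjusted p = 0.634), both without overlap of the arrays and neither past the threshold. The order of levels for Jun, Atf3 and Ier3 was thus control, then the 2 single doses, which could not be told from each other here, then RAR.

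The change in RAR was also compared with the sum of the log2 changes after each dose given alone, another comparison chosen after the values had been seen. In females Fos, Jun and Jund were lower than this sum, with differences of −1.40, −1.23 and −0.59 on the log2 scale and adjusted p (limma) of 0.00103, 0.000313 and 0.012. There 3.91% of all probes were called and 2.04% of all probes were called lower. In males Fos (−1.97), Jun (−1.27), Junb (−1.29), Jund (−0.72) and Ier3 (−1.28) were lower, with adjusted p between 3.31e-05 and 0.00669, where 3.38% of all probes were called and 1.32% were called lower. The Jund call in females was lost under quantile normalization (−0.42, adjusted p = 0.276) and in the Cy5 channel alone (−0.37, adjusted p = 0.119), and the difference was −0.58, under 1.5-fold, with normexp background correction. It was also under 1.5-fold, at −0.58 to −0.53, without female control 1, female low dose 2, female high dose 2, female RAR 2 or female RAR 3. The Ier3 call in males was lost under quantile normalization (−1.15, adjusted p = 0.0701). With normexp the differences were smaller but still called for Fos in females (−0.81) and for Junb (−0.69) and Ier3 (−0.77) in males. The difference of Atf3 from the sum was −0.24 in females (interval −0.96 to 0.47) and −0.66 in males (−1.38 to 0.05), with adjusted p of 0.796 and 0.394. A sum on the log2 scale is a product of folds, and the comparison uses the same control arrays in each term.

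The third question, that of the study, was whether males and females differ. Between male and female RAR arrays 1 of 10 genes was called, where 0.438% of all probes were called and 0.343% were higher in males. That gene was Jun, with −0.96, −1.06 and −1.41 in males and −1.81, −1.91 and −1.71 in females, a difference of 0.67 ± 0.119 (1.59-fold, adjusted p = 0.00982, limma). It missed the threshold without female RAR 2 (0.62, adjusted p = 0.0545), male RAR 1 (0.58, adjusted p = 0.0787) or male RAR 2 (0.63, adjusted p = 0.0552), and was 0.58 in the Cy5 channel alone, under 1.5-fold. For the other genes with a usable level the sex difference in RAR was −0.03 to 0.24 on the log2 scale and was not called.

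The interaction of sex and treatment was called for 0 of 10 genes at an adjusted p under 0.05 (limma F-test), with 0.00359% of all probes called, and 2 genes, Jun and Fos, had an unadjusted limma p under 0.05 (0.00824 and 0.0435), as did 6.49% of all probes. The sex difference of Jun in RAR exceeded that in control by 0.60 (interval 0.24 to 0.95, adjusted p = 0.524). An effect of sex on the response of these genes was therefore not shown by the fit, and its intervals allow differences such as this one. With values over 1 log2 unit from the others left out, Jun was called for the interaction (adjusted p = 0.0442, limma F-test). There Jun was also called for the sex difference in RAR against that in control (0.60, adjusted p = 0.0343, limma). The methods of the study also dropped outlying values, and this setting is 1 reading of that step.

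Markers of other cells moved with these results. The summed Cy5 level of 9 myeloid markers, scaled to the 75th percentile of each array, was 119 to 198 in control, 248 to 424 after low dose, 212 to 420 after high dose and 509 to 619 in RAR, so its tiers were those of Jun, Atf3 and Ier3. All 9, among them Lyz2, Csf1r, Cd68 and S100a8, were well above background on 24 arrays. Against control 4 of 9 rose after high dose, 3 after low dose and 8 in RAR in females, and 8, 5 and 9 in males. Of all probes 4.23%, 4.76% and 9.64% were called higher in these comparisons in females, and 5.2%, 3.21% and 11.2% in males. In RAR 8 of 9 in females and 5 of 9 in males were higher than after high dose, against 4% and 3.1% of all probes. None was called lower. The part of these cells in the levels of the immediate early genes was not tested.

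Markers of double-positive thymocytes, the most numerous cells of the thymus, summed to 714 to 861 in control, 647 to 853 after low dose, 661 to 794 after high dose and 369 to 544 in RAR. All 9 were well above background on every array, including Cd4, Cd8a, Rag1 and Ptcra, so the markers of the labelled cell type were present. As single probes 2 of 9 rose and 2 fell in RAR females against control, and 3 rose and 0 fell in RAR males. Of all probes 9.64% were called higher and 10.8% lower in RAR females, and 11.2% and 13.4% in RAR males. The median change of their log2 ratios was 0.0 in RAR females and 0.29 in RAR males. The ratios thus did not show the fall of the sum, which uses Cy5 alone and weighs bright probes most. The 5 markers of mature T cells summed to 55.6 to 75.8 in control and 98.3 to 116 in RAR, and the 7 stromal markers to 21.1 to 26.5 and 27.4 to 36.7. The median change of the stromal log2 ratios was −0.36 in RAR females and 0.38 in RAR males. Col1a1 and Col1a2 were called higher in RAR of both sexes, and Lum was called lower in RAR females. From control to RAR the summed level of epithelial markers was 2.89 to 4.2 and 3.45 to 6.57. The median change of the 6 epithelial log2 ratios was −0.96 in RAR females and −0.95 in RAR males, with Krt8 alone called higher. Endothelial markers summed to 9.5 to 12 in control and 8.66 to 10.4 in RAR. The sum of B cell markers was 11.3 to 16 in control and 4.9 to 6.58 in RAR, except 30.1 on female RAR 3. Of 6 B cell markers 3 were called lower in RAR females and 4 in RAR males, against 10.8% and 13.4% of all probes. Of these markers 0 were called higher. Erythroid markers summed to 35.9 to 185 in control and 35.1 to 243 in RAR. In such bulk samples the number of cells of a type and the RNA per cell cannot be told apart.

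**Figure D4:**
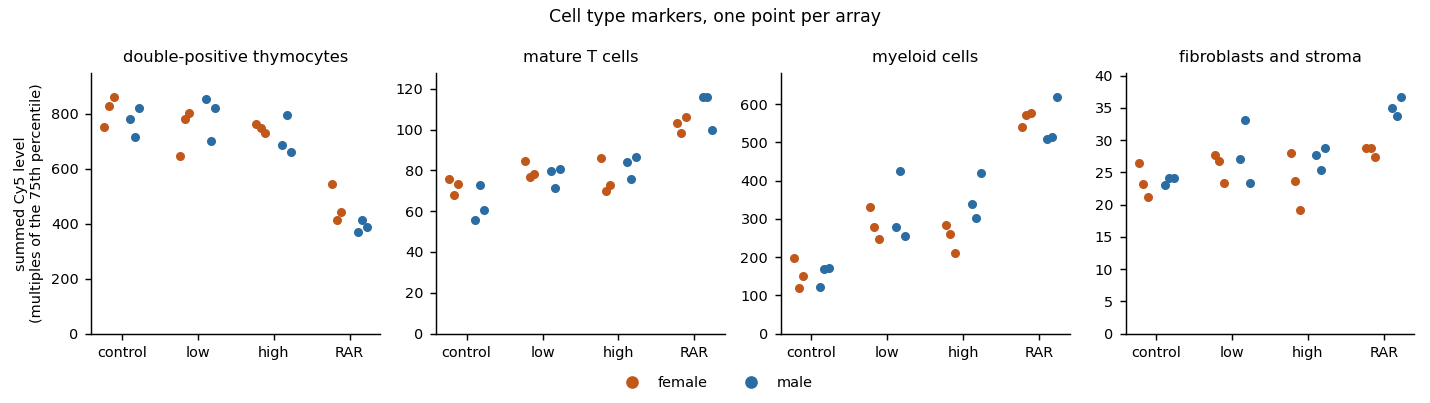
Summed Cy5 level of the markers of 4 cell types (vertical axes from 0, in multiples of the 75th percentile of the array), with 1 point per array, females in orange and males in blue. Myeloid markers lay at 119 to 198 in control and 509 to 619 in RAR, and the sum of double-positive thymocyte markers was lowest in RAR, at 369 to 544. The log2 ratios of the double-positive markers had a median change against control of 0.0 in RAR females and 0.29 in RAR males.

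The arrays were printed on 3 slides, and the groups were not spread evenly over them. All female controls were on slide 3, all female high dose arrays on slide 1 and the female RAR arrays on slides 1 and 2, so neither high dose nor RAR in females shared a slide with control. Where a slide held both groups, the change against control was 2.02 to 3.95 for Jun, 1.52 to 3.52 for Atf3, 1.90 to 4.01 for Ier3 and 1.41 to 1.92 for Fos over 5 such values. These values cover the low dose, the high dose and RAR. For RAR only males shared a slide with control, as 1 array against 1 on slide 2. That pair gave the upper ends for Jun, Atf3 and Ier3. RAR exceeded high dose within a slide by 0.91 to 1.26 for Jun, 1.23 to 1.68 for Atf3 and 0.90 to 1.41 for Ier3 over 3 values. With the slide as a block the changes in females at high dose were 2.20 for Jun, 1.99 for Atf3, 2.34 for Ier3 and 1.65 for Fos. In RAR females they were 3.11 for Jun, 3.5 for Atf3, 3.46 for Ier3 and 1.57 for Fos. All 4 genes passed the threshold in both comparisons.

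Other genes of the early response were taken from 5 lists of 55 genes in all, each with a probe. After high dose in females 7 of 55 rose and 1 fell, where 4.23% of all probes were called higher and 3.65% lower. After low dose in females 11 rose and 1 fell, against 4.76% and 4% of all probes, and in RAR females 19 rose and 6 fell, against 9.64% and 10.8%. After high dose in males 16 rose and 0 fell, against 5.2% and 5.38% of all probes. After low dose in males 10 rose and 1 fell, against 3.21% and 3.44%, and in RAR males 25 rose and 4 fell, against 11.2% and 13.4%. The median change of the 55 genes in RAR was 0.29 in females and 0.42 in males, beside medians over all probes of −0.0405 and −0.0153.

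Of 12 further leucine zipper genes 6 rose and 1 fell in RAR females, and 7 rose and 1 fell in RAR males. Beside them stand 9.64% of all probes called higher and 10.8% lower in RAR females, and 11.2% and 13.4% in RAR males. Fosl2, the FOS relative FRA-2, changed by 2.41 to 3.53 over the 6 comparisons with control and was called in all 6. Between RAR and high dose Fosl2 differed by 0.28 in females (adjusted p = 0.306, limma) and 0.21 in males (adjusted p = 0.489), and between RAR and low dose by −0.12 in females (adjusted p = 0.754) and 0.71 in males (adjusted p = 0.00483), where it was called higher. Crem, a cAMP-responsive regulator, changed by 0.86 to 1.65 and was called in 6 of 6, and Jdp2, a JUN partner that represses AP-1, by 0.46 to 1.54 and was called in 4 of 6.

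Of 8 genes that act with the EGR factors or with SRF, 1 rose and 2 fell in RAR females, and 1 rose and 1 fell in RAR males. All probes gave 9.64% called higher and 10.8% lower in RAR females, and 11.2% and 13.4% in RAR males. With 8 genes these counts lie near those shares. Elk1, a MAP kinase target that binds with SRF, rose in 6 of 6 comparisons, by 0.75 to 1.71. Srf itself changed by −0.71 to −0.18 and was called lower in RAR females. Id3, an EGR target in thymocytes, changed by −0.76 to −0.33 and was called lower in RAR of both sexes.

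Among 10 other early regulators 4 rose in RAR females and 7 in RAR males, and 0 fell. The shares of all probes were 9.64% higher and 10.8% lower in RAR females, and 11.2% and 13.4% in RAR males. Nr4a1, an orphan nuclear receptor induced by T cell receptor signals, changed by 0.52 to 0.95 and was called in 3 of 6 comparisons. Klf6, a zinc finger factor, changed by 0.52 to 1.07 and was called in 5 of 6, and Klf4, a relative of it, by 0.06 to 1.48 and was called in RAR of both sexes.

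Among 16 feedback and effector genes 8 rose and 2 fell in RAR females, and 10 rose and 1 fell in RAR males. The shares of all probes were again 9.64% higher and 10.8% lower in RAR females, and 11.2% and 13.4% in RAR males. Gadd45b, a stress-induced gene, lay at −2.51, −2.55 and −2.63 in female control and −0.24, −0.13 and −0.07 in female RAR, and at −2.40, −2.41 and −2.47 in male control and 0.19, 0.42 and −0.07 in male RAR. It was called in 6 of 6 comparisons, with changes of 0.99 to 2.61. Dusp1, a phosphatase that switches off MAP kinases, changed by 0.46 to 1.5 and was called in 5 of 6. Plk2, a kinase induced by TRP53, was well above background on the 18 irradiated arrays and on 0 of 6 controls, so only a bound can be given. It was at least 2.19- to 4.78-fold higher than control in the 6 comparisons. Here the control is set at the lowest signal well above background, or at its own signal if that was higher. The bound itself was not tested. The adjusted p of 4.15e-10 to 5.43e-08 (limma) belong to the changes in log2 ratio of Plk2, whose control ratios rest on Cy5 not well above background. The bound compares groups within the same dye, as thymocyte RNA was labeled with Cy5 on every array. The lowest signal well above background was taken from other probes of the array.

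Of 9 MAP kinase genes 0 were called higher against control in any of the 6 comparisons, where 3.21% to 11.2% of all probes were called higher, so this count lies near that of all probes. Map2k7, the kinase upstream of JNK, changed by −1.06 to −0.02 and was called lower in RAR females. Mapk8, which encodes JNK1, changed by −0.97 to −0.13 and was called lower in 1 of 6 comparisons, RAR males. Its lowest adjusted p over the 6 was 0.0481 (limma), just under the threshold. Map2k1 changed by −0.41 to 0.38 against control and was not called, but was higher in RAR than after low dose by 0.69 in females (adjusted p = 0.00162, limma) and 0.72 in males (adjusted p = 0.000317).

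**Figure D5:**
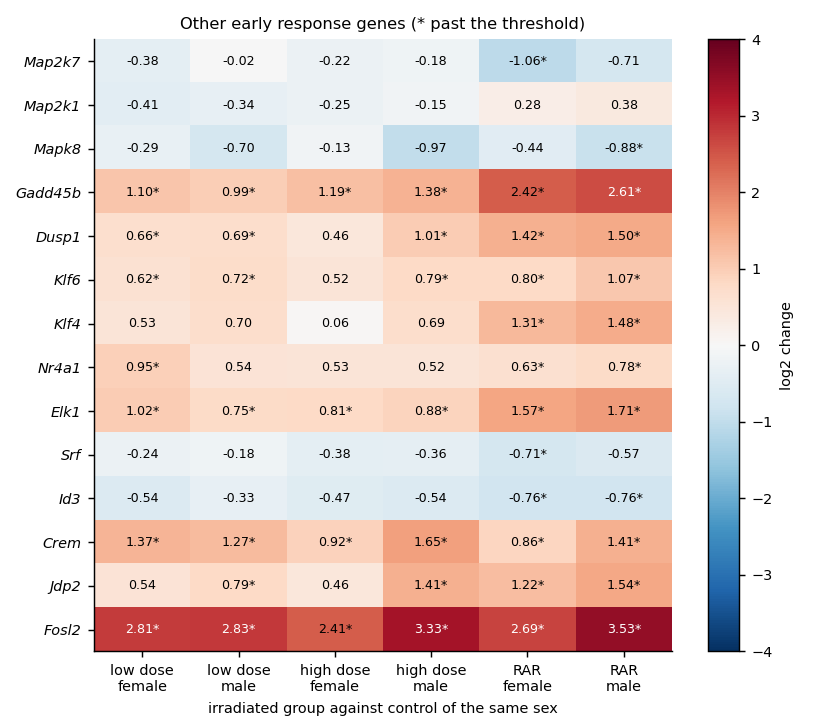
Log2 change against the control of the same sex for 14 other early response genes (rows) in the 6 irradiated groups (columns), with red for higher, blue for lower and an asterisk past the threshold. Fosl2 changed by 2.41 to 3.53 and Gadd45b by 0.99 to 2.61, while Map2k1 lay between −0.41 and 0.38.

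The genes whose levels ran most like each member were listed as a description, by Pearson's r over 24 arrays among 13994 genes, with the arrays sharing slides and a reference RNA. For Jun they were Cdkn1a (r = 0.99), the cell cycle inhibitor induced by TRP53, Hp (0.988) and Zfp365 (0.988). For Atf3 they were Gadd45g (0.984), Clec4d (0.983) and Ccl7 (0.979), and for Ier3 Gadd45g (0.991), Ifitm1 (0.991) and Clec4d (0.989). CLEC4D is a lectin of myeloid cells and CCL7 a chemokine that attracts monocytes. For Fos the likest were Rnd1 (0.965), the cytokine gene Il1b (0.964) and Cox6b2 (0.961), and for Fosb Aldh3a1 (0.944), Sf3a2 (0.94) and Pdia5 (0.933). Junb was closest to Pde3b (0.831) and Jund to Exoc4 (0.941). The values for Egr1 and Egr2 were lower, with Wipf1 at 0.788 and Dnajb11 at 0.824. Among the members themselves Fos correlated with Jun at 0.844, with Jund at 0.864 and with Egr1 at 0.149.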

How the data were processed

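Thymocyte RNA of 8 groups was measured on 24 Agilent 2-colour arrays (Cy5 thymocytes, Cy3 reference pool, no dye swaps). The authors deposited scanner output with the intensity of 62976 spots per array, processed by Feature Extraction 11.5.1.1 per the file headers (background subtraction and dye normalization within the array), and a deposited table of log2 Cy5/Cy3 ratios. Compared with ratios computed from the processed signals, 100% of this table on every array differed by at most 0.01; its medians ran from −0.137 to 0.087.

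Control spots were dropped, as were 183 to 368 outlier spots on each array. There were 0 saturated spots and 0 unmatched value columns. Spots of a probe were averaged, giving 55681 probes, of which 28026 were named by accession through a RefSeq table (GRCm38.p6, names and promoters). Cy5 was well above background for 34.7% to 71.8% of probes, both extremes in female RAR arrays, and the number of arrays limits the precision. Arrays of a group correlated at 0.801 to 0.914.

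Group means for the 8 groups were estimated in R 4.3.3 by limma 3.58.1 (16 residual and 1.63 prior degrees of freedom), with Benjamini-Hochberg adjustment over all probes and a threshold of adjusted p under 0.05 and 1.5-fold, as in the methods. Scripts also used version 1.17.8 of data.table, Python 3.11.15, pandas 2.3.3 and matplotlib 3.10.9, and the fit was tested on simulated data. P-values rest on the spread between the 3 independent samples within each group, pooled over the 8 groups and moderated over all probes.

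The members, lists and comparisons were chosen with earlier results of these data known. Named genes were the 10 members and, from each of 5 lists, the 3 genes with the largest mean absolute change against control among probes well above background on at least 12 arrays, and the 3 genes most correlated with each member. Alternatives were normexp (offset 50) with loess, quantile normalization, use of Cy5 by itself relative to the array's 75th percentile, the table of ratios, a filter on dim probes, leaving out values over 1 log2 unit from the others, the slide or the replicate number as a block, a log2 change over 1.5, an unmoderated 2-way F-test for the interaction, and each array left out. A motif was searched in 250 bases before the start.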

Additional observations from a re-analysis of the deposited data

How the results depend on the processing

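Counts of the 10 genes called were recomputed for 19 comparisons in 342 combinations with an alternative, of which 325 stayed within 1.5 times the count reported. With a log2 change over 1.5 as the threshold, RAR against control kept 3 genes in females and 3 in males, RAR against high dose 1 in females and 0 in males, RAR against low dose 1 in each sex, male against female RAR 0, and RAR against the sum of both doses 0 in females and 1 in males. Male against female RAR also gave 0 in the Cy5 channel alone and without female RAR 2 and 3 together (an alternative chosen after seeing the data), and 0 to 1 with each array left out. With values over 1 log2 unit from the others left out, 1 gene was called for the interaction (Jun), 1 for the sex difference in RAR against that in control (Jun), and 1 for high dose against low dose in males (Egr3). Egr3, never well above background, was also called for high dose against control (1.05) and RAR against low dose (0.87) in males there, and for RAR against control (1.57) and low dose (1.36) in females in the Cy5 channel alone. Of 828 recomputed values of changes that had passed the threshold 0 reversed and 58 missed it. The counts of other early response genes were recomputed in 153 combinations, of which 13 moved by over 1.5 times: 10 with a log2 change over 1.5 as the threshold, which left 0 to 5 of 55 genes, RAR against high dose in males under quantile normalization (3), and, without female RAR 2 and 3 together, RAR against high dose (2) and low dose (1) in females. The Cy5 channel alone shifted the median of all probes by 0.641 in RAR against control in females and 0.328 in males. With the replicate number as a block, RAR against control gave 5 genes in females and 6 in males, as without it, and no other count of called genes changed. The deviations of arrays from their group means correlated at −0.164 to 0.222 over 84 same-numbered pairs, with 4 over 0.1. By these deviations 6 of 24 arrays correlated best with their own number. These values show no pairing by number, but with 3 arrays per group they cannot exclude one. A second probe per gene could not be tried, as each gene had 1. The causes of these differences were not tested.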
